A study of Mus musculus with 12 samples.

Results

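Intercalated cells of the connecting tubule and collecting duct carry the genes through which the distal nephron handles acid and base, and 10 of these genes were followed here in the kidney cortex of HIF2aM3 and WT mice. The members were 2 transcription factor genes (Foxi1 and Tfcp2l1), 3 anion exchanger genes (Slc4a1, Slc4a9 and Slc26a4), 3 genes of kidney isoforms of the proton pump (Atp6v1b1, Atp6v0d2 and Atp6v1g3) and 2 ammonia channel genes (Rhcg and Rhbg). They were taken by symbol, and 9 of the 10 matched a row among the 27412 gene IDs of the deposited table. Rhbg was not analysed here. All 9 passed the filter on low counts.

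HIF2aM3 animals were male C57BL/6 mice carrying the γ-HIF2αM3 transgene, in which the γ-glutamyl transferase promoter, active in the proximal tubule, drives a constitutively active form of the hypoxia-inducible factor subunit HIF2α. WT animals were wild-type males of the same strain, and no animal was treated. The groups had 3 animals each (17-51, 17-53 and 17-56, and WT 1, WT 2 and WT 3), with 1 RNA-seq library from the outer cortex of each of the 2 kidneys of an animal, 12 libraries in all. The sources used here state no ages and do not say whether the shared prefix 17 marks 1 transgenic line. If it does, line and transgene cannot be told apart.

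Type A intercalated cells secrete acid: a vacuolar proton pump (V-ATPase) sits at their apical membrane, and the chloride-bicarbonate exchanger AE1, the product of Slc4a1, returns bicarbonate to the blood on the other side. Type B cells secrete bicarbonate through the apical exchanger pendrin, the product of Slc26a4, and carry AE4, the product of Slc4a9, at the basolateral membrane. Foxi1 and Tfcp2l1 encode transcription factors that these cells need to form and to express their transporters, and Rhcg encodes a channel through which ammonia leaves the cell into the urine.

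Kidney 2 of 17-51 was a shallow library of 4161829 counts, the other 11 held 24032148 to 43499743, and totals per animal ran from 32392033 to 85018818 in HIF2aM3 and from 51309463 to 66566563 in WT. The lowest count of a member in an animal was 947 (Foxi1 in 17-51) and the highest 41455 (Tfcp2l1 in WT 2). Of 19564 genes tested between the genotypes with edgeR's quasi-likelihood test on counts summed over both kidneys of an animal, 3.75% passed a Benjamini-Hochberg adjusted p of 0.05 in either direction and 1.82% passed it as lower in HIF2aM3. Before adjustment, 4876 of the 19564 were at an edgeR p under 0.05, the background for the unadjusted counts given below. The median log2 fold change (HIF2aM3 over WT) of all genes tested was 0.00485. DESeq2 on the same summed counts, without the filter on low counts, called 1060 of 27412 gene IDs higher and 978 lower. Its counts per list below are to be read beside that larger number of calls. The proximal tubule gene Lrp2, which encodes the endocytic receptor megalin, was at 2293 CPM (counts scaled to library size) in HIF2aM3 and 2233 CPM in WT, so that both groups carried abundant RNA of the labelled tissue. The distal genes described here are a small share of such RNA, and in bulk cortex fewer cells of a type and less RNA per cell cannot be told apart.

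Promoter sequences are shown for the 3 members that were lower in HIF2aM3 and for Atp6v1b1, the pump subunit gene that serves as a comparison below, because the transgene encodes a DNA-binding factor and Foxi1 is a forkhead factor. RefSeq (GRCm38.p6) gave a promoter for 6 of the 10 members. Each run is the 250 bases before the start of the gene, 5′ to 3′ on the strand of the gene, at chr11:34208090-34208339 on the minus strand (Foxi1), chr1:118627695-118627944 on the plus strand (Tfcp2l1), chr7:79617658-79617907 on the minus strand (Rhcg) and chr6:83742767-83743016 on the plus strand (Atp6v1b1). Capitals mark matches on either strand to the hypoxia response element core (ACGTG or GCGTG) or to a forkhead motif (TGTTTAC or TATTTAC).
Foxi1: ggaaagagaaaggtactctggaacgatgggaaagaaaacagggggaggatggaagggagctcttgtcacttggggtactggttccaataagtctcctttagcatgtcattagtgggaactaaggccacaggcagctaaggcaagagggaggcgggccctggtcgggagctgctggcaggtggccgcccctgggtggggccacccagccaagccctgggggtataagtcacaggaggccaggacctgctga
Tfcp2l1: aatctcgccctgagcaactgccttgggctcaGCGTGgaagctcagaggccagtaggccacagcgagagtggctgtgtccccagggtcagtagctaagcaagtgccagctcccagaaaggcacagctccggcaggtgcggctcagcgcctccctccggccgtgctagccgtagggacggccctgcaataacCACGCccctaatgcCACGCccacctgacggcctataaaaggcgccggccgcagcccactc
Rhcg: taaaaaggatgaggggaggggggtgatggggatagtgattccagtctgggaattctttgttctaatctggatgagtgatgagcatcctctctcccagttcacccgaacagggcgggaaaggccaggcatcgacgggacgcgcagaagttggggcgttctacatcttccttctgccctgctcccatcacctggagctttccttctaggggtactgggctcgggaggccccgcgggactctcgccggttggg
Atp6v1b1: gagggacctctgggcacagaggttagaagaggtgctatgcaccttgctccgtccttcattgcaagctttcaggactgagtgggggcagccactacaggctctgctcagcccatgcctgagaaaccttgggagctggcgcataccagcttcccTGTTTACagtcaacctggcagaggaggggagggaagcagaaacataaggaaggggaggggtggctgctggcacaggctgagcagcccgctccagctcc
The Tfcp2l1 run held the letters GCGTG 3 times, once on the plus strand from 219 to 215 bases before the start and on the minus strand from 60 to 56 and from 46 to 42 bases before it. The core was present in 38.3% of 27025 promoter windows of the same length, and it was absent from the other 5 member promoters in the table (Foxi1, Slc26a4, Atp6v1b1, Atp6v1g3 and Rhcg). The forkhead letters TGTTTAC stood in the Atp6v1b1 run from 98 to 92 bases before the start, and a forkhead match was present in 5.75% of the windows. No match of the 2 kinds overlapped another. These matches describe letters in a short window and not binding, and a window without a match says nothing of the factor. The promoter of the transgene is active in the proximal tubule, and its activity in intercalated cells was not tested.

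Both transcription factor genes were lower in HIF2aM3 cortex. Foxi1, the forkhead gene that sets intercalated cell identity, was at 29.1, 39.1 and 24.3 CPM in the HIF2aM3 animals 17-51, 17-53 and 17-56, against 74.2, 54.3 and 57.9 CPM in WT 1, WT 2 and WT 3. Every HIF2aM3 animal was below every WT animal, and so was every library, the highest HIF2aM3 library standing at 42.1 CPM and the lowest WT library at 50.5 CPM. The means were 30.8 ± 7.52 CPM in HIF2aM3 and 62.1 ± 10.6 CPM in WT (SD, n = 3 each). Foxi1 fell by 50.2% (log2 fold change -1.01 ± 0.19, SE, edgeR adjusted p = 0.0432). It was the lowest log2 fold change among the 9 members.

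Tfcp2l1, a grainyhead family factor expressed in intercalated and other collecting duct cells, was at 462, 454 and 409 CPM in 17-51, 17-53 and 17-56, against 767, 621 and 576 CPM in WT 1, WT 2 and WT 3. The HIF2aM3 animals lay close together and below all WT animals, of which WT 1 was the highest. Tfcp2l1 fell by 32.5% (log2 fold change -0.57 ± 0.11, SE, edgeR adjusted p = 0.0431). In the GRCm38 annotation a small nuclear RNA gene, Gm23497, shares an exon with Tfcp2l1 on the same strand, and the other 8 members overlap no exon of another gene.

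Rhcg, the ammonia channel gene, was lower as well. It was at 79.7, 85.3 and 59.3 CPM in 17-51, 17-53 and 17-56, against 132, 122 and 113 CPM in WT 1, WT 2 and WT 3. The genotypes did not overlap between animals or libraries, and 17-56 was the lowest animal. The means of 74.8 ± 13.7 CPM in HIF2aM3 and 122 ± 9.70 CPM in WT (SD, n = 3 each) gave a log2 fold change of -0.71 ± 0.14 (SE, edgeR adjusted p = 0.0428), a fall by 38.9%.

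**Figure D1:**
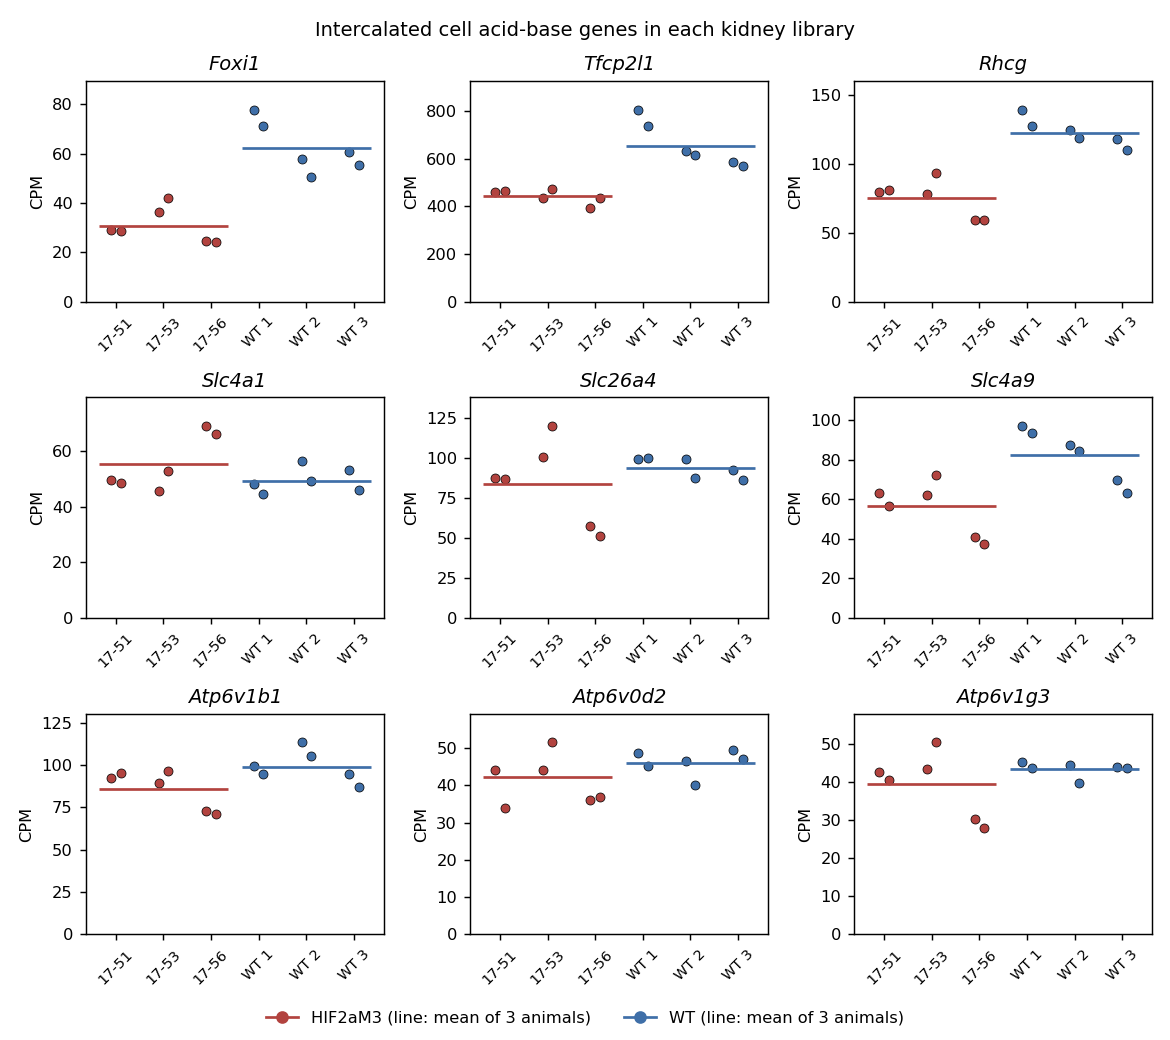
CPM (y axes from 0) of the 9 members in each of the 12 kidney libraries, by animal (x axis, HIF2aM3 left, WT right), with a line at the mean of 3 animals. Foxi1, Tfcp2l1 and Rhcg do not overlap between genotypes, and in 17-56 Slc4a1 is at 69.1 and 66.1 CPM, above every other library.

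Thus 3 of the 9 members passed the threshold, all lower in HIF2aM3, where 1.82% of all genes did. The same 3 were the members whose animals did not overlap, a property that 16.5% of all genes tested had in that direction. DESeq2 called 4 of the 9 as lower and none as higher. The edgeR calls lay just inside the threshold and depended on single animals. With 1 animal left out, none of the 9 passed without WT 1, WT 3, 17-51 or 17-53, 1 passed without 17-56 (Rhcg) and 2 passed without WT 2, while 3 to 5 were at an unadjusted edgeR p under 0.05. Of all genes, 3665 to 5497 of 19679 to 19954 tested were at such a p in these fits. None of the 9 passed without kidney 2 of WT 1 alone, and 1 passed without kidney 1 of WT 2, 17-53 or 17-56. The log2 fold changes moved less: over all 29 alternatives they ran from -1.22 to -0.76 for Foxi1, from -0.66 to -0.45 for Tfcp2l1 and from -0.82 to -0.57 for Rhcg.

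None of the 3 anion exchanger genes passed the threshold with edgeR. Slc4a9 (AE4) was at 62.8, 67.3 and 39.3 CPM in 17-51, 17-53 and 17-56, against 95.0, 86.2 and 66.2 CPM in WT 1, WT 2 and WT 3. Its groups overlapped only through 17-53, which was above WT 3. The log2 fold change was -0.55 ± 0.22 (SE, edgeR adjusted p = 0.186). DESeq2 gave an adjusted p of 0.0423 for the same summed counts, so the call depends on the test.

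Slc26a4 (pendrin) was at 87.2, 109.75 and 54.6 CPM in 17-51, 17-53 and 17-56, against 98.8, 93.5 and 88.8 CPM in WT 1, WT 2 and WT 3. The WT animals lay within a narrow range, while 17-53 was above all of them, 17-51 just below and 17-56 far below. The log2 fold change was -0.16 ± 0.23 (SE, edgeR adjusted p = 0.709), and without 17-56 it was 0.075.

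Slc4a1 (AE1), the exchanger gene of type A cells, was at 49.6, 49.3 and 67.6 CPM in 17-51, 17-53 and 17-56, against 46.2, 53.1 and 49.2 CPM in WT 1, WT 2 and WT 3. Only 17-56 was outside the WT range, and it was above it. Slc4a1 was the 1 member with a log2 fold change above 0 (0.17 ± 0.13, SE, edgeR adjusted p = 0.467), and without 17-56 that value was -0.0019.

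The 3 pump subunit genes differed less between genotypes than Foxi1, Tfcp2l1 and Rhcg did in their log2 fold changes, a contrast that was not tested. Atp6v1b1, which encodes the kidney isoform of the B subunit of the catalytic head, was at 92.7, 92.7 and 71.8 CPM in 17-51, 17-53 and 17-56, against 96.3, 109 and 90.3 CPM in WT 1, WT 2 and WT 3. The groups overlapped, 17-51 and 17-53 standing above WT 3. Its log2 fold change was -0.20 ± 0.12 (SE, edgeR adjusted p = 0.321). Atp6v0d2 and Atp6v1g3, which encode isoforms of the membrane-sector d subunit and of the G subunit in the stalk, had log2 fold changes of -0.12 ± 0.10 and -0.14 ± 0.16 (SE, edgeR adjusted p of 0.476 and 0.635). Atp6v0d2 was at 42.8, 47.7 and 36.4 CPM in 17-51, 17-53 and 17-56, against 46.6, 43.6 and 48.0 CPM in WT 1, WT 2 and WT 3. Atp6v1g3 was at 42.6, 46.9 and 29.2 CPM in 17-51, 17-53 and 17-56, against 44.4, 42.4 and 43.8 CPM in WT 1, WT 2 and WT 3. The lowest animal was 17-56 for both genes, and 17-51 was also below the WT range for Atp6v0d2. Without 17-56 the log2 fold change of Atp6v1g3 was 0.042 and that of Atp6v0d2 -0.023.

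**Figure D2:**
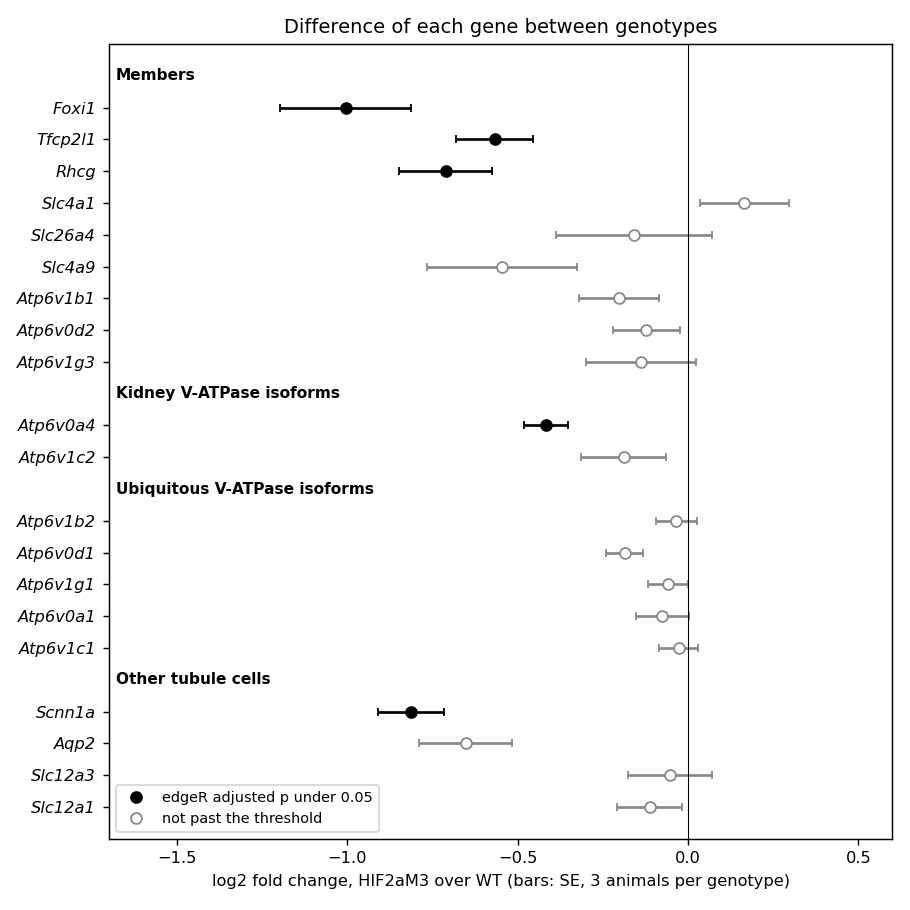
Log2 fold change, HIF2aM3 over WT (x axis, bars SE, 3 animals per genotype), of the 9 members, of other V-ATPase subunit genes and of genes of other tubule cells (y axis), filled where the edgeR adjusted p is under 0.05. Foxi1, Tfcp2l1 and Rhcg lie between -1.01 and -0.57, and the 3 pump subunit members between -0.20 and -0.12.

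The pump genes were set against the isoforms that most cells use. To compare genes with each other, CPM was divided by the length of the longest coding transcript (CPM per kb), since the lengths implied by the deposited RPKM exceeded that transcript by factors from 1.07 (Atp6v1b1) to 4.07 (Slc4a9) among the members and by 7.60 for Atp6v0a1. A ratio within an animal has no test here and is given as a description. Atp6v1b1 over its ubiquitous counterpart Atp6v1b2 was 0.290, 0.284 and 0.219 in 17-51, 17-53 and 17-56, against 0.280, 0.346 and 0.268 in WT 1, WT 2 and WT 3, so the groups overlapped. Atp6v0d2 over Atp6v0d1 averaged 0.253 ± 0.0350 in HIF2aM3 and 0.242 ± 0.00261 in WT, and Atp6v1g3 over Atp6v1g1 averaged 1.13 ± 0.221 in HIF2aM3 and 1.20 ± 0.0457 in WT (SD, n = 3 each). In these 3 ratios 17-56 was the lowest of the 6 animals.

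Of the a subunit isoforms, Atp6v0a4, which is mutated in human distal renal tubular acidosis, as Atp6v1b1 is, and is also used by proximal tubule cells, was lower in HIF2aM3. It was at 303, 293 and 282 CPM in 17-51, 17-53 and 17-56, against 410, 393 and 368 CPM in WT 1, WT 2 and WT 3, with no overlap. Its log2 fold change was -0.42 ± 0.06 (SE, edgeR adjusted p = 0.0265). Its exons overlap those of Tmem213 on the opposite strand and of D630045J12Rik on its own strand, and reads could not be assigned between them here with certainty. Atp6v0a4 over Atp6v0a1 was 5.59, 5.54 and 5.90 in 17-51, 17-53 and 17-56, against 7.35, 7.97 and 6.35 in WT 1, WT 2 and WT 3, again with no overlap. Since the CPM of Atp6v0a4 did not overlap either, this ratio is not a separate observation. Atp6v1c2, a C subunit isoform whose exons overlap Pdia6 on the opposite strand, had a log2 fold change of -0.19 ± 0.12 (SE, edgeR adjusted p = 0.386), and its ratio to Atp6v1c1 averaged 0.217 ± 0.0425 in HIF2aM3 and 0.243 ± 0.0227 in WT (SD, n = 3 each). The ubiquitous Atp6v1b2, Atp6v0d1, Atp6v1g1, Atp6v0a1 and Atp6v1c1 had log2 fold changes from -0.19 to -0.03, none past the threshold.

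Over the 21 V-ATPase subunit genes that are not members, 2 passed the threshold as lower and none as higher, with a median log2 fold change of -0.13 and all 21 values below 0, where 49.1% of all genes tested were below 0. Beside Atp6v0a4 the second was Atp6v0e, which encodes the small e subunit (-0.31 ± 0.05, SE, edgeR adjusted p = 0.0234). Of the 21 genes, 8 were at an unadjusted edgeR p under 0.05, and DESeq2 called 5 as lower and none as higher. Their summed level was 2798, 2864 and 2827 CPM in 17-51, 17-53 and 17-56, against 3265, 3013 and 3138 CPM in WT 1, WT 2 and WT 3. The 9 members had a median log2 fold change of -0.20, with 8 of 9 below 0, and their summed level was 949, 992 and 792 CPM in 17-51, 17-53 and 17-56, against 1401, 1225 and 1133 CPM in WT 1, WT 2 and WT 3. Tfcp2l1 contributes the most to that sum.

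Per kb of transcript, the order of the members in WT ran from Tfcp2l1 (70.6 ± 10.8 CPM per kb, SD, n = 3) over Rhcg (58.6 ± 4.64), Atp6v1b1 (49.3 ± 4.85), Slc26a4 (30.5 ± 1.64), Foxi1 (26.4 ± 4.49), Slc4a9 (26.2 ± 4.69), Atp6v1g3 (23.1 ± 0.550) and Atp6v0d2 (18.1 ± 0.891) to Slc4a1 (10.9 ± 0.768). Among neighbours in that order, the WT animals separated Atp6v1b1 from Slc26a4, Atp6v1g3 from Atp6v0d2 and Atp6v0d2 from Slc4a1, and they overlapped for the other 5 pairs. The order depends on the length chosen. In deposited RPKM, WT libraries ran from 39.4 to 54.0 for Atp6v1b1 and from 31.9 to 40.1 for Rhcg. For Slc4a9 they ran from 4.74 to 7.24, and for Slc4a1 from 6.69 to 8.68. In HIF2aM3, Foxi1 averaged 13.1 ± 3.19 CPM per kb, next to Slc4a1 with 12.2 ± 2.30 (SD, n = 3 each). Set against Atp6v1b1 in the same animal, Foxi1 was 0.267, 0.357 and 0.287 in 17-51, 17-53 and 17-56, against 0.653, 0.422 and 0.544 in WT 1, WT 2 and WT 3, and Rhcg was 0.823, 0.880 and 0.790 in 17-51, 17-53 and 17-56, against 1.32, 1.07 and 1.20 in WT 1, WT 2 and WT 3. Neither ratio overlapped between genotypes. The CPM of Foxi1 and of Rhcg did not overlap either, so these ratios are not a separate observation. Tfcp2l1 over Atp6v1b1 did overlap, since 17-56 with 1.23 was level with WT 2.

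The 3 HIF2aM3 animals were not alike. In 17-56 the type A exchanger gene Slc4a1 was at 137% of the WT mean, while the type B exchanger genes Slc26a4 and Slc4a9 were at 58.3% and 47.7% of it. In 17-53 the same genes were at 99.6%, 117% and 81.7% of the WT mean, and in 17-51 at 100.3%, 93.1% and 76.1%. Slc4a1 over Slc26a4 was therefore 0.837 in 17-56, against 0.385 and 0.304 in 17-51 and 17-53 and 0.316, 0.385 and 0.375 in WT 1, WT 2 and WT 3. Both kidneys of 17-56 showed it, with 0.811 in kidney 1 and 0.874 in kidney 2, while the other 10 libraries ran from 0.300 to 0.389. Slc4a1 over Slc4a9 was 1.19 in 17-56, against 0.548 and 0.508 in 17-51 and 17-53 and 0.337, 0.428 and 0.516 in WT 1, WT 2 and WT 3. The ratio of the type B genes, Slc4a9 over Slc26a4, did not single out 17-56. It was 0.702, 0.598 and 0.703 in 17-51, 17-53 and 17-56, against 0.938, 0.899 and 0.727 in WT 1, WT 2 and WT 3, with no overlap between genotypes. The gap was narrow, the highest HIF2aM3 library standing at 0.714 and the lowest WT library at 0.715, and this ratio was not planned.

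**Figure D3:**
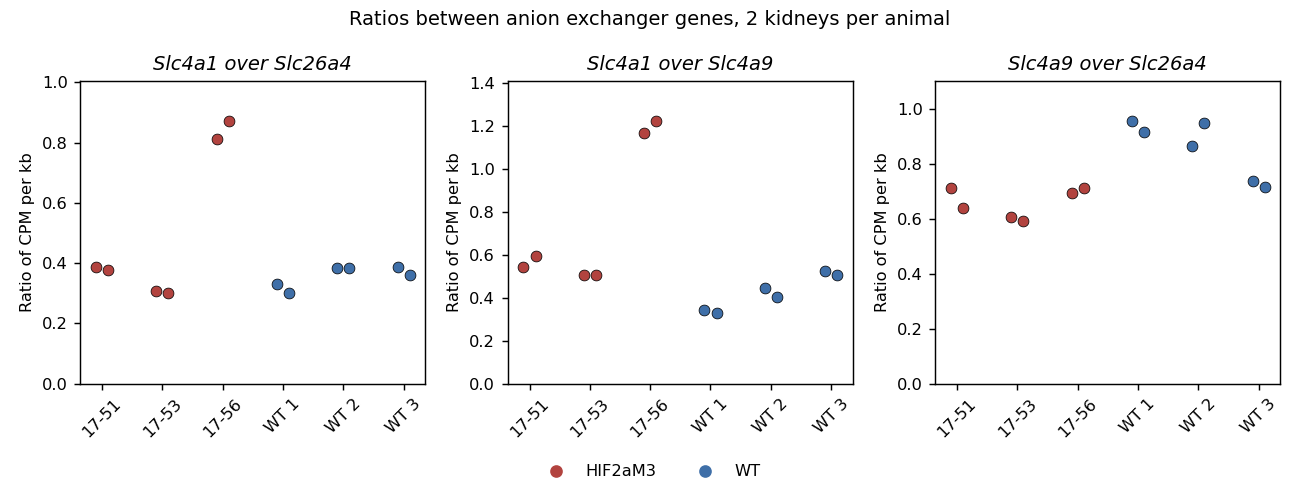
Ratios of CPM per kb between anion exchanger genes (y axes from 0) in each kidney library, by animal (x axis, HIF2aM3 left, WT right). Both kidneys of 17-56 lie at 0.811 and 0.874 for Slc4a1 over Slc26a4, and the other 10 libraries between 0.300 and 0.389.

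Genes of the intercalated cell list that are not members were looked at in 17-56 too, and Aqp6 and Kit were chosen after their values had been seen. Aqp6, a water channel gene of type A cells, was at 34.9, 39.3 and 62.0 CPM in 17-51, 17-53 and 17-56, against 39.9, 43.4 and 34.3 CPM in WT 1, WT 2 and WT 3. Insrr, which encodes an alkali-sensing receptor found in type B cells, was at 38.1, 42.9 and 19.3 CPM in 17-51, 17-53 and 17-56, against 52.2, 46.4 and 40.6 CPM in WT 1, WT 2 and WT 3. Hmx2, a homeobox gene, was at 4.68, 6.89 and 2.43 CPM in 17-51, 17-53 and 17-56, against 8.95, 7.84 and 6.96 CPM in WT 1, WT 2 and WT 3. Kit, which encodes a receptor tyrosine kinase, was at 24.5 CPM in 17-56, against 19.5 and 21.1 CPM in 17-51 and 17-53 and 17.7 to 22.2 CPM in WT. Over all 21 genes of that list, 17-56 was the highest of the 6 animals for 3 (Aqp6, Kit and P2ry14), the lowest for 12, Insrr and Hmx2 among them, and neither for 6. Slc26a7, an anion exchanger gene of type A cells, was among those 6, at 2.09 CPM in 17-56, between 2.34 in 17-51 and 1.84 in 17-53. These counts do not separate genes of type A cells from those of type B cells. Of the 9 members, 17-56 was the highest for Slc4a1 and the lowest for the other 8. Insrr and Hmx2 are not a separate observation, since they were taken for their likeness to the members' profile, which 17-56 itself shapes. This is 1 animal, so the pattern has no test.

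Slc4a1 is also the gene of the red cell anion exchanger, and RNA of red cells was therefore read from a list of 6 erythroid genes, added after the data had been seen. Of the 6, 4 passed the filter on low counts. Their summed level was 40.1, 97.4 and 59.7 CPM in 17-51, 17-53 and 17-56, against 76.0, 98.7 and 146 CPM in WT 1, WT 2 and WT 3. Alas2, which encodes the erythroid enzyme of heme synthesis, was at 4.49, 10.2 and 7.19 CPM in 17-51, 17-53 and 17-56, against 8.21, 10.2 and 15.2 CPM in WT 1, WT 2 and WT 3. Exons of Alas2 overlap those of Apex2 on the opposite strand. Epb42, the gene of a red cell membrane protein that binds the anion exchanger, was at 2.18, 2.79 and 2.30 CPM in 17-51, 17-53 and 17-56, against 1.09, 1.21 and 1.94 CPM in WT 1, WT 2 and WT 3. The 3 HIF2aM3 animals were thus above the 3 WT animals for Epb42, without passing the threshold by edgeR (log2 fold change 0.78 ± 0.23, SE, edgeR adjusted p = 0.0996). The other 3 tested erythroid genes had log2 fold changes below 0, and the list median was -0.66. None of the 4 passed by edgeR. Of them, 2 were at an unadjusted edgeR p under 0.05, Epb42 as higher and another gene as lower, and DESeq2 called 1 as higher. In 17-56, the animal with the highest Slc4a1, the sum, Alas2 and Epb42 lay between the lowest and the highest of the 6 animals. The part of red cell RNA in the Slc4a1 values was not tested.

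**Figure D4:**
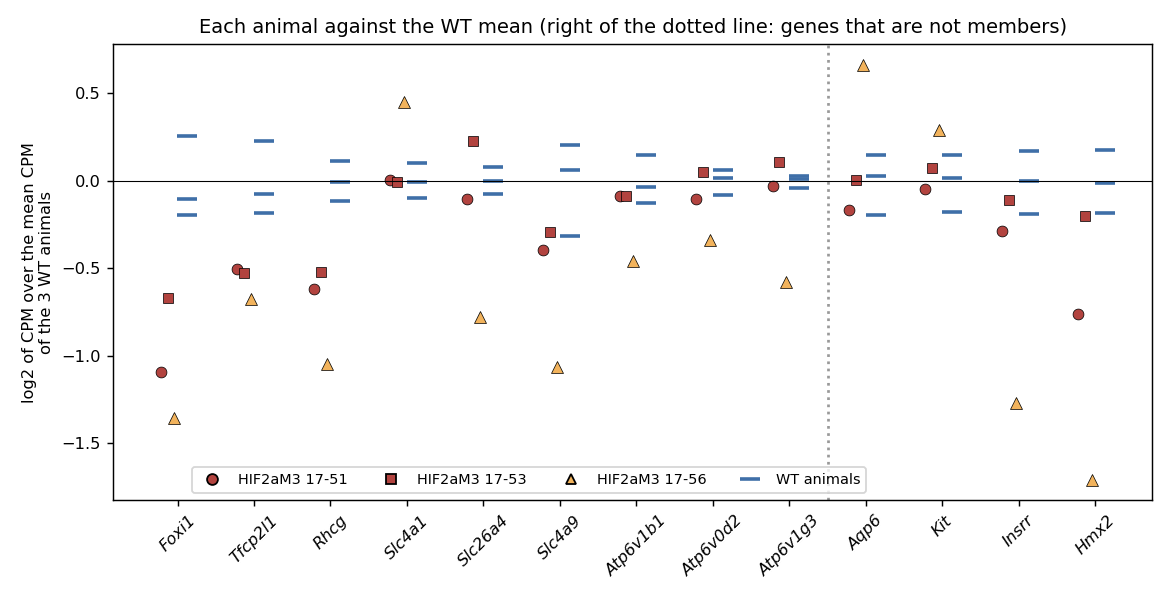
Log2 of CPM over the mean CPM of the 3 WT animals (y axis) for each animal, for the 9 members and 4 other intercalated cell genes (x axis). In 17-56 (triangles) Slc4a1 is at 0.45 and Slc26a4 and Slc4a9 are at -0.78 and -1.07, while Foxi1, Tfcp2l1 and Rhcg are below 0 in all 3 HIF2aM3 animals.

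Both kidneys of an animal gave similar levels. The absolute log2 difference between them had a median of 0.111 over the 9 members and 6 animals, and the largest, 0.373, was for Atp6v0d2 in 17-51, whose kidney 2 is the shallow library. In 17-53 every member was lower in kidney 1, by log2 differences from -0.10 to -0.25. In WT all were higher in kidney 1 except Slc26a4 in WT 1 (-0.011), and in 17-51 and 17-56 the signs were mixed. Foxi1 had a log2 fold change of -1.11 with kidney 1 alone and -0.87 with kidney 2 alone. Across the 12 libraries, with the mean of each genotype removed, 8 members had a positive correlation with one another and Slc4a1 a negative one with each of them. The correlation with the mean scaled profile of the 9 members was 0.97 for Rhcg, 0.94 for both Slc26a4 and Slc4a9, 0.91 for Atp6v1g3, 0.89 for Foxi1, 0.78 for Atp6v1b1, 0.72 for Atp6v0d2 and 0.66 for Tfcp2l1, and it was -0.55 for Slc4a1 (Pearson's r, 12 libraries of 6 animals, each gene being part of the profile). Of the 36 pairs of members, 8 had an r below 0, and these were the 8 pairs with Slc4a1. That pattern rests on 17-56: in the 10 libraries without it 5 pairs were below 0, 2 with Slc4a1 and 3 between other members. Slc4a1 then had an r of 0.42 with the profile and Atp6v1b1 one of 0.44. The members kept a median pair r of 0.42 without 17-56, against 0.68 with it. The libraries of an animal share their tissue, so these values describe the libraries and carry no p.

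The 8 genes outside the list whose profile was most like that of the members over the 12 libraries were Hsd11b2 (r of 0.95), Kcne1 (0.95), Insrr (0.94), Hepacam2 (0.94), Hmx2 (0.93), Mospd3 (0.93), Stub1 (0.92) and Atp6v1c2 (0.92). Without 17-56 their r ran from 0.735 (Stub1) to 0.967 (Hepacam2). Hsd11b2, which encodes the enzyme that inactivates glucocorticoids in aldosterone-responsive cells, was at 151, 157 and 111 CPM in 17-51, 17-53 and 17-56, against 212, 195 and 183 CPM in WT 1, WT 2 and WT 3, and did not pass the threshold (log2 fold change -0.49 ± 0.13, SE, edgeR adjusted p = 0.0830). None of the 8 passed it.

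Of the 21 other genes listed for intercalated cells, 1 passed the threshold by edgeR as lower (Atp6v0a4) and none as higher, with 15 of 21 log2 fold changes below 0 and a median of -0.22, while DESeq2 called 1 lower and 1 higher. Slc26a7, an anion exchanger gene of type A cells, was higher in each HIF2aM3 animal than in any WT animal, at 2.34, 1.84 and 2.09 CPM in 17-51, 17-53 and 17-56, against 1.43, 1.30 and 1.16 CPM in WT 1, WT 2 and WT 3. It did not pass the threshold (log2 fold change 0.68 ± 0.16, SE, edgeR adjusted p = 0.0599). Genes of neighbouring tubule cells were also among the lower calls. Of 14 genes of principal cells and the connecting tubule, 3 passed by edgeR as lower and none as higher, with a median of -0.30, and DESeq2 called 6 lower and 1 higher. Scnn1a, which encodes the α subunit of the epithelial sodium channel, was at 112, 120 and 92.9 CPM in 17-51, 17-53 and 17-56, against 183, 185 and 202 CPM in WT 1, WT 2 and WT 3 (log2 fold change -0.81 ± 0.10, SE, edgeR adjusted p = 0.0143). Aqp3, a basolateral water channel gene (-0.30 ± 0.06), and Avpr2, the vasopressin receptor gene (-0.31 ± 0.06, with exons shared with Arhgap4 on the opposite strand), passed too, with edgeR adjusted p of 0.0453 and 0.0431. Aqp2, the apical water channel gene, had -0.65 ± 0.14 (SE, edgeR adjusted p = 0.0510). Aqp4, a basolateral water channel gene, had a positive log2 fold change that did not pass, being at 15.3, 13.7 and 3.69 CPM in 17-51, 17-53 and 17-56, against 1.82, 0.870 and 3.01 CPM in WT 1, WT 2 and WT 3 (log2 fold change 2.51 ± 0.63, SE, edgeR adjusted p = 0.0776). Its 2 genotypes did not overlap, and 17-56 was the HIF2aM3 animal nearest to WT. The part of such neighbouring cells in the values of Foxi1, Tfcp2l1 and Rhcg was not tested.

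Further up the nephron, Slc12a3 of the distal convoluted tubule and Slc12a1 of the thick ascending limb, both salt cotransporter genes, had log2 fold changes of -0.05 ± 0.12 and -0.11 ± 0.10 (SE, edgeR adjusted p of 0.830 and 0.503). Of 8 distal convoluted tubule genes 1 passed by edgeR as lower, the potassium channel gene Kcnj10 (-0.50 ± 0.08, SE, edgeR adjusted p = 0.0286), with a list median of -0.10. DESeq2 called 1 of the 8 lower and 1 higher. Of 7 thick ascending limb genes none passed by edgeR, 3 being at an unadjusted p under 0.05 and DESeq2 calling 2, and the median was -0.26. Umod, the uromodulin gene, had the smallest p among them (-0.52 ± 0.11, SE, edgeR adjusted p = 0.0512).

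Proximal tubule genes that make bicarbonate and ammonia, on which the distal cells depend, numbered 8, and none passed by edgeR, 4 being at an unadjusted p under 0.05 and DESeq2 calling 3. Slc38a3, which encodes the basolateral glutamine transporter that feeds ammonia production, was at 10.2, 5.23 and 3.69 CPM in 17-51, 17-53 and 17-56, against 14.9, 21.7 and 24.8 CPM in WT 1, WT 2 and WT 3. The genotypes did not overlap, and its log2 fold change of -1.73 ± 0.37 (SE) had an edgeR adjusted p of 0.0580. Of 10 proximal tubule markers, Slc5a12, a lactate transporter gene, passed as higher (0.49 ± 0.10) and Slc22a6, an organic anion transporter gene, as lower (-0.50 ± 0.11), both with an edgeR adjusted p of 0.0483. The list median was -0.01.

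Among markers of cells outside the tubule, the calls were all in the higher direction. Of 7 endothelial genes, Kdr, a receptor for the growth factor VEGF (0.70 ± 0.12, SE, edgeR adjusted p = 0.0302), and Emcn, an endothelial sialomucin gene (0.57 ± 0.12, SE, edgeR adjusted p = 0.0458), passed as higher, and all 7 log2 fold changes were above 0 with a median of 0.41. All 7 were at an unadjusted edgeR p under 0.05, and DESeq2 called all 7 as higher. Their summed level ran from 469 to 479 CPM in HIF2aM3 and from 288 to 404 CPM in WT. Of 7 macrophage genes Csf1r passed as higher (0.58 ± 0.10, SE, edgeR adjusted p = 0.0349, with exons shared with Hmgxb3 on the opposite strand), and the list median was 0.29. Of 5 podocyte genes none passed by edgeR or DESeq2 and none was at an unadjusted p under 0.05, with a median of -0.05. CPM are shares of a library, and the part of these shifts in the members' values was not tested.

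**Figure D5:**
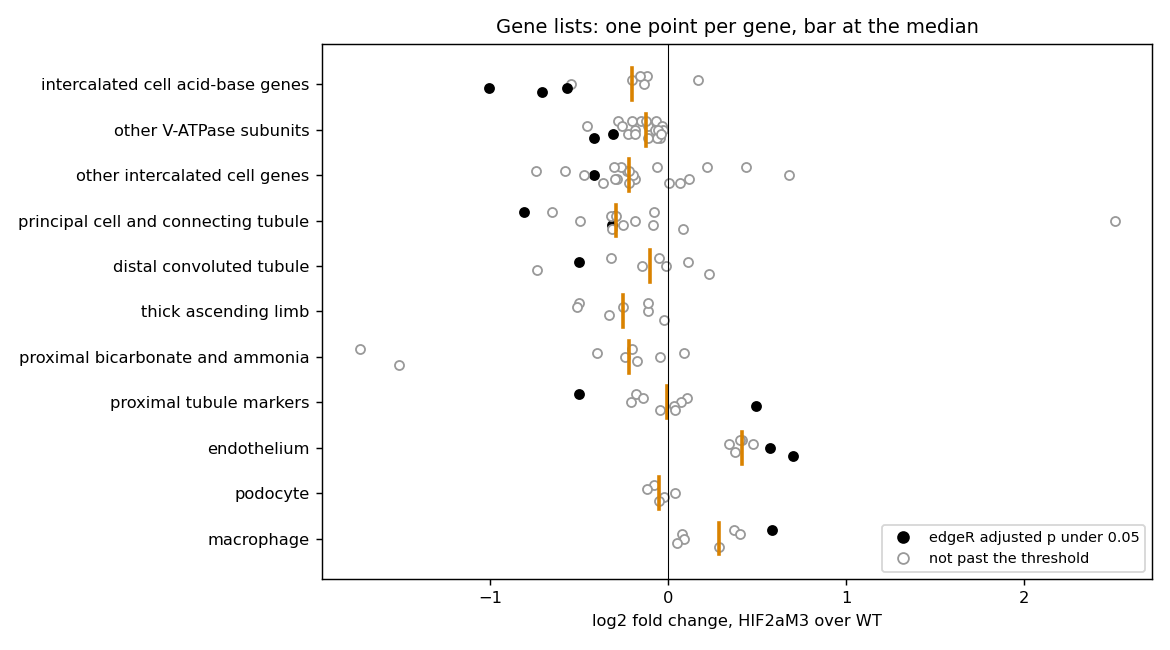
Log2 fold change, HIF2aM3 over WT (x axis), of each gene of the members and of 10 other gene lists (y axis), filled where the edgeR adjusted p is under 0.05, with a bar at the list median. The median is -0.20 for the intercalated cell acid-base genes, -0.30 for principal cell and connecting tubule genes and 0.41 for endothelial genes.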

How the data were processed

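RNA from outer cortex slices was prepared with an Illumina TruSeq kit, per the labels' protocols, and the submitters' processing notes name the mm9 build for alignment. Not given in the sources used here: aligner, counter, annotation release and any use of strand. The authors deposited raw read counts per gene and RPKM values, the latter with all 54482 zero counts above 0. IDs without a symbol held 1.184% of the counts.

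Counts were summed over both kidneys of an animal and tested with edgeR 4.0.16 (R 4.3.3; filterByExpr, TMM factors, robust quasi-likelihood F test, two-sided, genotype alone), with Benjamini-Hochberg adjustment over all genes tested and a threshold of 0.05. SE was obtained by dividing the absolute log2 fold change by the root of F. Where nothing says that animals came from separate litters or lines, p-values measure the spread between these animals. CPM uses TMM factors. Ratios of V-ATPase isoforms and of Slc4a1 over Slc26a4 were planned, on RPKM averaged over 2 kidneys. The ratios over Atp6v1b1 of Foxi1, Tfcp2l1 and Rhcg and those with Slc4a9 were not planned. All were computed on CPM per kb of the longest GENCODE coding transcript (GRCm38), because the lengths implied by the RPKM departed from those transcripts. The choice of length scales a ratio alike in all animals, while the order of genes per kb depends on it. Summed counts give the deeper kidney more weight than the planned mean. In 17-51, Atp6v0d2 over Atp6v0d1 was 0.271 in kidney 1, 0.209 in kidney 2 and 0.263 from summed counts. Gene overlaps come from GRCm38 and promoters from RefSeq.

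The members, lists and tests were chosen with earlier results of these data known, and the erythroid list after the data were seen. Besides the members, the text names the V-ATPase isoforms, Aqp2, Scnn1a, Slc12a3, Slc12a1, up to 3 genes of smallest p past the threshold per list (or the 1 with the smallest p), and the 8 genes of most similar profile with a mean of at least 1 CPM. Aqp6, Kit, Lrp2, Alas2, Aqp4, Slc26a7 and P2ry14 were named outside that rule, after their values were seen. A further gene that the rule takes is not reported here. The test was tested on simulated data. Alternatives were the replicate unit, the kidney, DESeq2 1.42.0, factors, count filters, limma 3.58.1 on log2(deposited RPKM + 0.1) and + 5, and left-out animals and libraries.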

Additional observations from a re-analysis of the deposited data

Results flagged for a closer look

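Of 18 sets of 6 libraries (9 members in each genotype), 1 held a library far from the others by Dixon's criterion. Atp6v1g3 was at 39.9 CPM in kidney 2 of WT 2, below the other 5 WT libraries, which ran from 43.9 to 45.3 CPM. Kidney 1 of the same animal was at 44.6 CPM. Chance flags about 1 in 20 such sets where values are independent, and kidneys of an animal are not.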

How the results depend on the processing

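Of the members, 3 were called, against 0 by edgeR with kidney 2 alone and 0 by limma on RPKM with either pseudocount (4 at an unadjusted p under 0.05 in each), and 0 to 3 with 1 animal or library left out. With kidney 2 alone, 3637 of all 18162 genes tested were at an unadjusted edgeR p under 0.05. By limma, 4682 and 4625 of 19564 were, with pseudocounts of 0.1 and 5. Genes called numbered 733, against 4829 with the 12 libraries as replicates, 337 with kidney 2 alone, 2038 by DESeq2, 140 and 67 by limma with pseudocounts of 0.1 and 5, and 11 to 1549 with 1 animal or library left out. Over the 10 other lists 11 genes were called, against 50 with the 12 libraries as replicates, 4 with kidney 2 alone, 30 by DESeq2, 7 with library size alone, 1 by limma with either pseudocount, and 0 to 18 with 1 animal or library left out. With 1 animal or library left out, the log2 fold change of Atp6v1g3 ran from -0.28 to 0.042, that of Slc26a4 from -0.41 to 0.075 and that of Slc4a1 from -0.0019 to 0.25, each changing sign without 17-56. The signs of the other 6 members were the same in all 29 alternatives. The cause was not tested. The lowest count of a member in an animal was 947, and 3 animals per genotype limit the precision. No paired analysis was possible because animal numbers are not shared between genotypes.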
